A study of Mus musculus with 15 samples.

Results

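Genes of the lysosome and of autophagy were examined in hematopoietic stem cells (HSCs), the rare bone-marrow cells from which all blood lineages arise. The set holds 38 of the 20696 genes in the deposited expression table, chosen by gene symbol, and all 38 were found there. Bulk RNA sequencing was run on HSCs sorted by flow cytometry from mouse bone marrow, with SMART-Seq v4 libraries (full-length cDNA amplified from very little RNA) made from 2 ng of total RNA. The 15 libraries form 3 groups of 5. Controls were young, at 3 months, or aged, at 18 months, and the last group, also of 18 months, is labelled aged Thbs1 knockout. The labels used here name no strain, no sort markers, no knockout allele and no control genotype beyond the word control, and do not say whether each library came from a separate animal. P-values therefore measure the spread between these libraries, part of which may be technical.

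The lysosome is an acidic organelle that breaks down proteins, glycans and lipids. A proton pump, the V-ATPase, acidifies it, cathepsins and glycosidases do the digestion, and membrane proteins such as LAMP1 and LAMP2 line its wall. Autophagy delivers the cell's own material to it. The ULK1 kinase and the Beclin 1 complex start a membrane, the ATG12-ATG5 conjugation system attaches proteins of the LC3 and GABARAP family to that membrane, and receptors such as p62 (Sqstm1) bind cargo. The transcription factors TFEB and TFE3 switch on many of these genes. In HSCs, autophagy clears mitochondria, and lysosomal activity has been linked to dormancy.

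Expression was given as FPKM, fragment counts scaled by gene length and library size, so that levels can be compared between genes per length. The reads assigned to genes came to 16.6e6 to 28.6e6 per library, and all 38 genes passed the minimum mean of 1 FPKM set for testing. All 12 HSC marker genes examined had a mean of at least 1 FPKM. Libraries 2 and 5 of the group labelled knockout stood apart in their share of reads from ribosomal RNA genes, 2.97% and 1.16%, against 0.268% to 0.679% in the other 13 libraries. The gene of the knockout label, Thbs1, was not lower in that group: its mean was 10.4 ± 7.84 FPKM against 2.90 ± 3.84 in aged controls (± SD, n = 5 per group; log2 change 1.73, SE 0.71, adjusted p = 0.302 by limma). In libraries named male, Thbs1 was at 2.53 and 1.69 FPKM in that group, against 0.20, 0.01 and 0.62 in aged controls. In those named female it was at 17.89, 12.69 and 17.25, against 8.75 and 4.90. Within each sex that group thus lay above the aged controls, which was not tested. The group is therefore called the libraries labelled aged Thbs1 knockout, or labelled knockout libraries. Groups follow the sample titles printed over the columns. The library names over 10 of the 15 columns belong, in the sample descriptions, to a sample with another title, and grouping by those descriptions reversed the change with age of Ctss and of every other gene tried there. Against aged controls Ctsd and Hexa, and against young controls Ctss, kept their direction without passing the test. The section on processing choices gives the values, and the comparisons of sex were not refitted with those groups.

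The 38 genes covered a wide range of levels per length. Psap, which encodes the precursor of the saposins that help degrade sphingolipids, had the highest mean over all libraries, 199 FPKM. It was followed by Gabarap (129), Sqstm1 (110), the cathepsin genes Ctsz (107) and Ctsd (104), Gabarapl1 (103) and, after Lamp1, Hexa (99.2 FPKM). At the low end lay Tfe3 and Tfeb (4.04 FPKM each), the α-galactosidase gene Gla (2.89), the cholesterol exporter gene Npc1 (2.84) and Wipi1 (1.89), a phosphoinositide-binding autophagy gene. The coefficient of variation within a group had a median over the 38 genes of 11.2% in young controls, 14.4% in aged controls and 22.4% in labelled knockout libraries, against 14.9%, 20.6% and 29.5% over all genes tested. The most variable gene was Ctsc (20.1%) in young controls, Lamp2 (39.2%) in aged controls and Ctss (59.0%) in labelled knockout libraries.

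**Figure D1:**
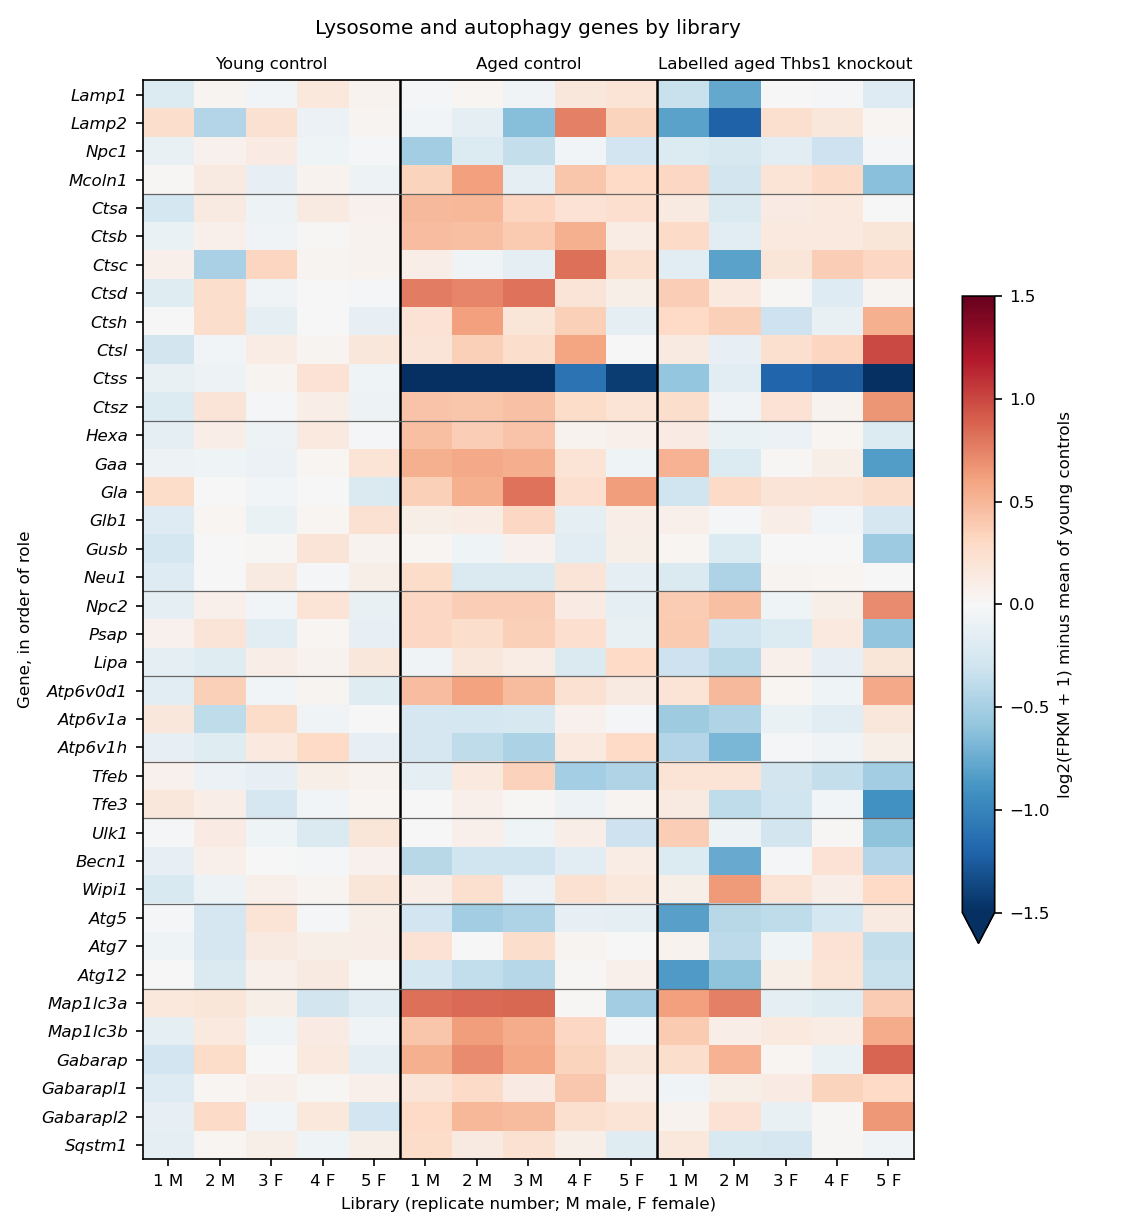
Each row is a gene and each column a library, with colour showing log2(FPKM + 1) minus the mean of the young controls (values beyond -1.5 take the darkest blue). Ctss is the darkest row, lower in all 5 aged controls, and cathepsin and LC3 family rows are mostly red there.

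The first comparison asked how these genes differ between HSCs of aged and young controls. Ctss fell, and the other 37 genes did not pass the test. The 7 other cathepsin genes and all 6 LC3, GABARAP and cargo receptor genes had a higher mean in aged controls without passing it. Changes are on the log2(FPKM + 1) scale, which compresses differences between low FPKM values, and were tested with limma over all 11345 genes tested, two-sided, with a gene called at a Benjamini-Hochberg adjusted p under 0.05. Of all genes tested, 4.42% were called in this comparison, 3.18% as higher and 1.23% as lower, so 1 gene of 38 is no more than the background. The median log2 change was 0.16 over the 38 genes and -0.02 over all genes tested. A log2 change above 0 was seen in 27 of the 38, against 47.8% of all genes tested, and an unadjusted p under 0.05 in 12 of 38, against 20.0% of all genes.

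**Figure D2:**
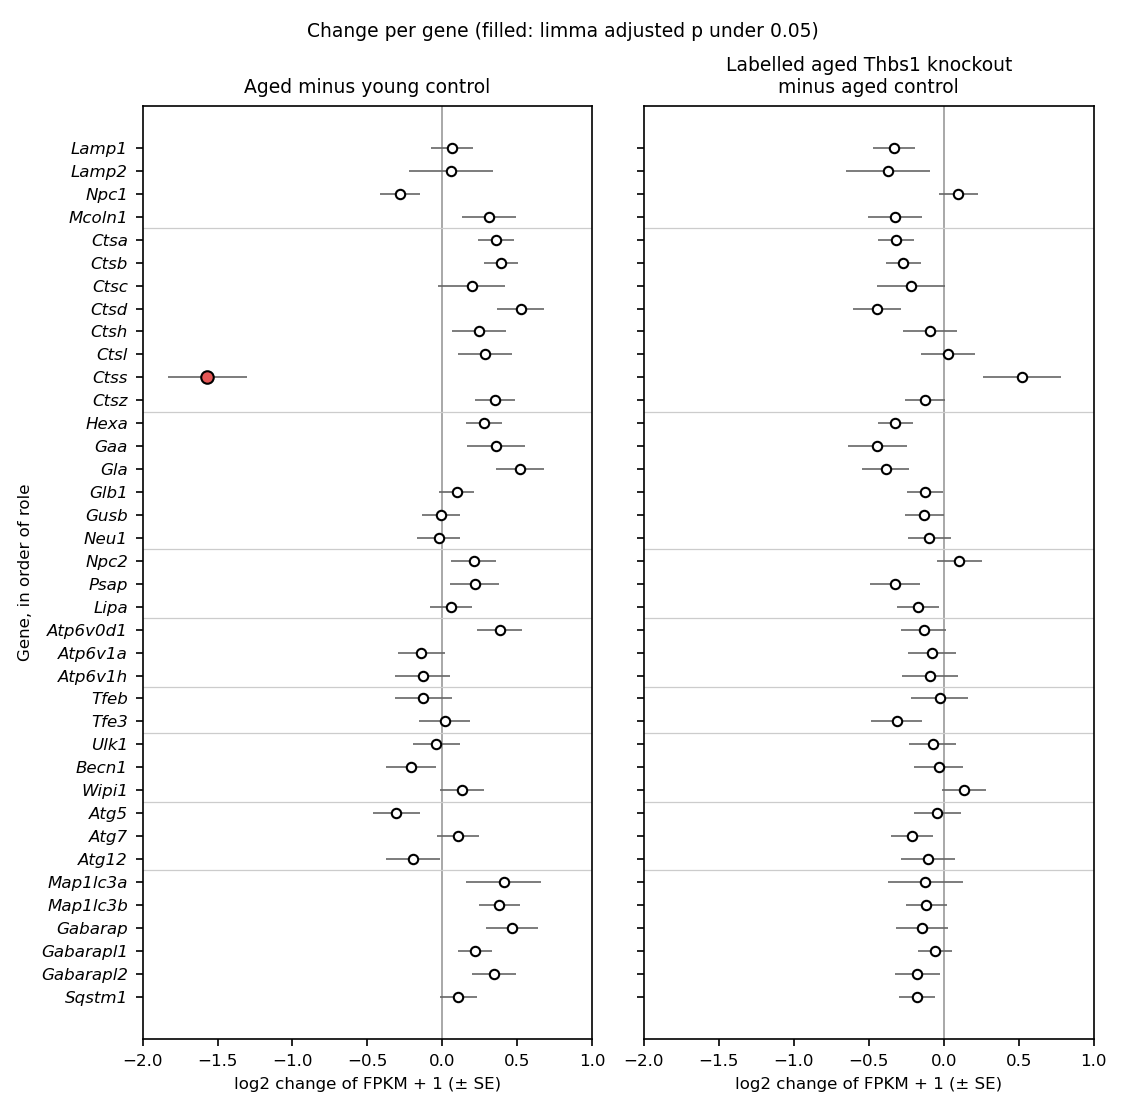
Points give the log2 change of FPKM + 1 per gene with its standard error, for aged minus young controls (left) and labelled knockout minus aged controls (right), in order of role. Ctss, filled at -1.57 on the left, is the call, and 33 of 38 points lie below 0 on the right.

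Ctss encodes cathepsin S, a protease best known for processing the MHC class II invariant chain. It lies on GRCm38 chromosome 3, 95526786 to 95556403 (ENSMUSG00000038642). Young controls 1 to 5 had 7.58, 7.77, 8.48, 9.76 and 7.82 FPKM. The level was 1.47, 2.17, 1.54, 3.31 and 2.46 in aged controls 1 to 5. All aged controls thus lay below all young controls. The mean went from 8.28 ± 0.893 to 2.19 ± 0.753 FPKM (± SD, n = 5 per group), a ratio of 0.264, and the log2 change was -1.57 (SE 0.26, adjusted p = 0.00111 by limma). The fall was called whichever library was left out, with log2 changes from -1.68 to -1.48, and within each sex. Within males it was -1.68 (adjusted p = 0.00186 by limma, with 7.75% of all genes called) and within females -1.32 (adjusted p = 0.0174, with 0.961%). In the labelled knockout libraries the values spread over 5.21, 7.22, 3.05, 2.89 and 1.26 FPKM. There the 2 males lay above the 3 females, as they did for 10.5% of all genes tested. In young and in aged controls the males instead lay below the females without overlap, as for 13.3% and 29.1% of all genes tested.

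Cathepsin S is abundant in monocytes, macrophages and dendritic cells, so their markers were read beside it. Of 15 such genes, 13 stayed under 1 FPKM in every library, among them Csf1r (at most 0.62), Adgre1 (0.32) and Itgax (0.08 FPKM). The exceptions were C1qb (at most 2.48) and Cd68, itself a lysosomal protein gene, at 5.35 to 12.08 FPKM. Summed over the 15 markers, young controls held 9.53 to 15.8 FPKM, aged controls 7.71 to 14.0 and labelled knockout libraries 7.57 to 14.98. Another list moved with age: for 5 multipotent progenitor markers the sums were 59.7 to 73.7 FPKM (young controls), 23.5 to 36.3 (aged controls) and 23.99 to 52.5 (labelled knockout libraries). Most of each group's sum came from Cd34, with means of 48.7, 23.1 and 26.96 FPKM, a gene that is also on the HSC marker list. Flt3, a receptor of such progenitors, had means of 9.51, 2.35 and 6.16 FPKM in those groups. Neutrophil markers, mostly Prtn3, summed to 91.8 to 143 FPKM (young controls), 195 to 381 (aged controls) and 160.5 to 383.6 (labelled knockout libraries). Prtn3 itself had means of 101.9, 295.0 and 199.9 FPKM. With age the means of S100a8 (4.45, then 3.99), S100a9 (5.18, then 2.78) and Mpo (1.99, then 1.43) were lower. Those of Elane, Ltf, Ngp and Ctsg were higher, at most 1.31 FPKM in aged controls. Ly6g and Camp, also listed, had no values. The higher neutrophil sum in aged controls thus rested on Prtn3. The part of these cells in the level of Ctss was not tested, and in bulk samples fewer cells of a type and less RNA per cell cannot be told apart.

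**Figure D3:**
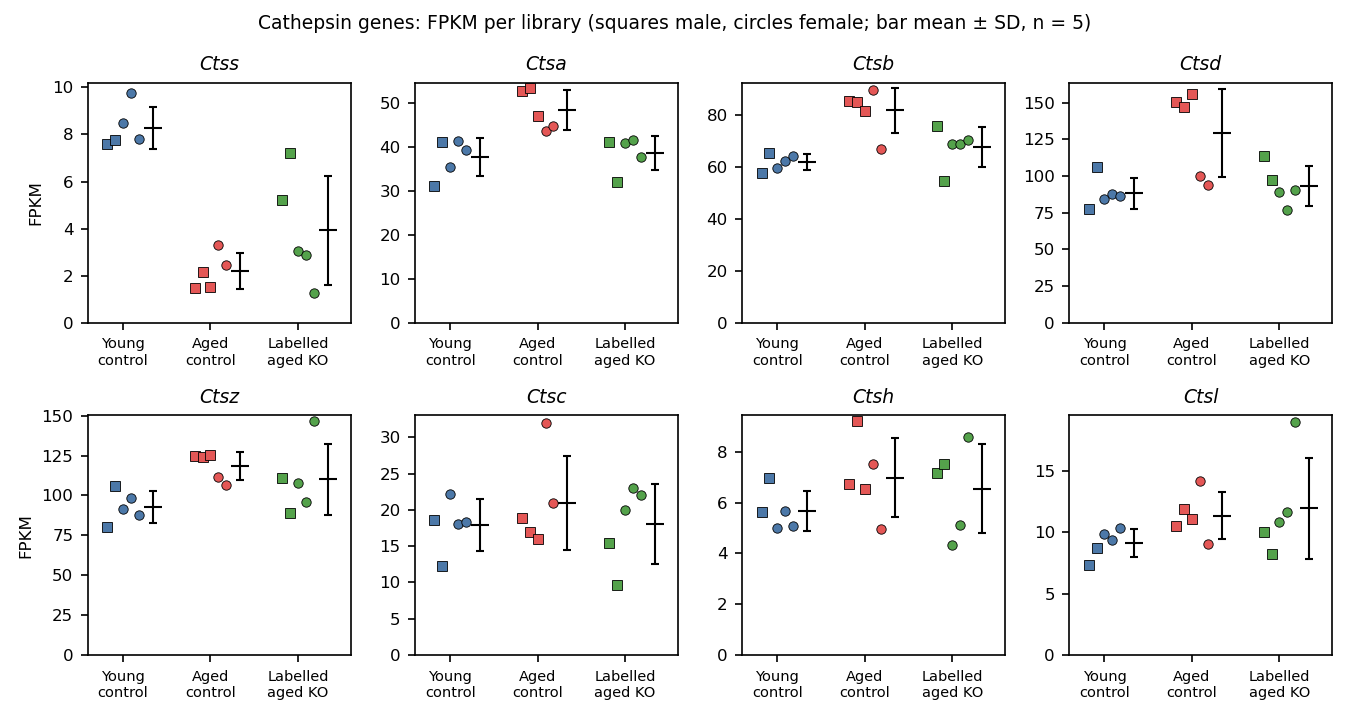
Each panel gives FPKM per library for 1 cathepsin gene in the 3 groups (squares male, circles female, bar mean ± SD, n = 5). Ctss is lower in aged controls with no overlap, while Ctsa and Ctsb lie higher there with no overlap.

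Ctsb, Ctsd and Ctsa had the smallest p-values among the other cathepsin genes. Ctsb (ENSMUSG00000021939, chromosome 14, 63122462 to 63145923) encodes cathepsin B, a cysteine protease. Its FPKM was 57.8, 65.4, 59.6, 62.4 and 64.3 in young controls and 85.6, 85.1, 81.4, 89.8 and 67.0 in aged controls, without overlap. The log2 change of 0.39 (SE 0.12) did not pass the test (adjusted p = 0.0637 by limma).

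Ctsd (ENSMUSG00000007891, chromosome 7, 142375911 to 142388038) encodes cathepsin D, the main aspartic protease of the lysosome. Its level was 77.4, 106.0, 84.5, 87.6 and 86.1 FPKM in young controls and 151, 147, 156, 100.2 and 93.6 in aged controls. Aged controls 1 to 3, the males, lay high, while the females, 4 and 5, lay within the young range. The log2 change of 0.52 (SE 0.16) did not pass (adjusted p = 0.0724 by limma). With sex as a covariate it was 0.45 and passed (adjusted p = 0.0443 by limma, with 5.51% of all genes called).

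Ctsa (ENSMUSG00000017760, chromosome 2, 164832873 to 164841032) encodes cathepsin A, the serine carboxypeptidase that also protects β-galactosidase and neuraminidase. It gave 31.1, 41.1, 35.4, 41.2 and 39.2 FPKM in young controls and 52.7, 53.4, 47.1, 43.6 and 44.8 in aged controls. The groups did not overlap, and the log2 change of 0.36 (SE 0.12) did not pass the test (adjusted p = 0.10 by limma). Exons of Ctsa overlap those of Pltp and Neurl2 on the other strand, and exons of Ctsb those of Fdft1. In all, 11 of the 38 genes overlap exons of another gene in the table, the others being Ctsz, Hexa, Glb1, Lamp1, Npc1, Map1lc3b, Gabarapl1, Sqstm1 and Becn1. The sources at hand do not say whether counting used strand, and such pairs may share reads.

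The third cathepsin gene without overlap was Ctsz, cathepsin Z, from 92.8 ± 9.95 to 118 ± 8.79 FPKM (± SD, n = 5 per group; log2 change 0.35, adjusted p = 0.157 by limma). The remaining ones, Ctsc, Ctsh and Ctsl, had log2 changes of 0.20, 0.25 and 0.28, with groups that overlapped. Over all 38 genes, aged and young controls did not overlap for 4 with a higher level (Ctsa, Ctsb, Ctsz and Gabarapl1) and 1 with a lower level (Ctss). Over all genes tested, 4.57% were higher and 2.59% lower without overlap.

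Among 6 glycosidase genes none passed the test, and the median log2 change with age was 0.19. Gla (ENSMUSG00000031266, chromosome X, 134588149 to 134601125) encodes α-galactosidase A, the enzyme deficient in Fabry disease. Its FPKM was 2.96, 2.26, 2.18, 2.29 and 1.82 in young controls and 3.21, 3.74, 4.78, 2.90 and 4.06 in aged controls. Young control 1 overlapped the lowest aged library, and the log2 change of 0.52 (SE 0.16) did not pass (adjusted p = 0.0747 by limma), though it did after quantile normalization (0.57, adjusted p = 0.044 by limma, with 5.05% of all genes called). Hexa, which encodes the α chain of β-hexosaminidase, went from 93.4 ± 7.69 to 114 ± 14.98 FPKM (log2 change 0.28). The acid α-glucosidase gene Gaa went from 70.1 ± 6.44 to 91.1 ± 16.6 (0.36), with the male aged controls at 101 to 105 FPKM and the females at 80.9 and 66.8. Glb1, Gusb and Neu1, which encode β-galactosidase, β-glucuronidase and neuraminidase 1, had log2 changes of 0.10, -0.01 and -0.02.

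The lipid-handling genes Psap, Npc2 and Lipa had log2 changes of 0.21, 0.21 and 0.06 with age, none past the test. Psap was at 237, 231, 245 and 229 FPKM in aged controls 1 to 4 and at 177 in aged control 5, against 171 to 219 in young controls. Among the membrane protein genes, Lamp1 (0.07) and Lamp2 (0.06) had log2 changes near 0. The lysosomal calcium channel gene Mcoln1 was at 0.31 and Npc1, which exports cholesterol from the lysosome, at -0.28, from 3.26 ± 0.287 to 2.52 ± 0.429 FPKM. The V-ATPase genes differed in sign: Atp6v0d1, of the membrane sector, was at 0.38 (adjusted p = 0.168 by limma), and Atp6v1a and Atp6v1h, of the cytosolic sector, at -0.14 and -0.13.

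Tfeb and Tfe3 themselves did not pass the test with age. Tfeb had a mean of 4.29 ± 0.354 FPKM in young and 3.97 ± 1.29 in aged controls (± SD, n = 5 per group; log2 change -0.13, adjusted p = 0.714 by limma), and Tfe3 4.33 ± 0.572 and 4.36 ± 0.209 (0.02, adjusted p = 0.965 by limma). The protein products of both act mainly through their entry into the nucleus, which a transcript level does not show. Both bind E-boxes with the letters CACGTG, often inside the longer TCACGTGA found before lysosomal genes. Each of these motifs reads the same on both strands, and each TCACGTGA contains a CACGTG.

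RefSeq promoter windows of build GRCm38.p6, 250 bases before to 50 after a transcription start, were at hand for 31 of the 38 genes, in 36 windows. CACGTG occurred in 12 of the 36 windows (33.3%), against 7.15% of all 32851 windows of that length. TCACGTGA occurred in 6 (16.7%), against 0.974%. These are matches of letters, not measured binding. The 30 bases around TCACGTGA, in capitals, are shown for the 6 genes that hold it, 5′ to 3′ along the gene's strand. The first motif base lay 99 bases before the RefSeq start in Ctsd, 228 and 195 before it in Gla, 13 before it in Ctsa, 46 in Mcoln1, 4 in Atp6v0d1 and 132 in Atp6v1a. In GENCODE M21, transcripts of some genes start elsewhere. The printed matches of Ctsd, Ctsa, Mcoln1 and Atp6v1a lie inside the annotated span of the gene there, that of Ctsd inside an annotated first exon. Those of Gla and Atp6v0d1 lie before the gene in both annotations.
Ctsd, chr7:142387908-142387937, minus strand: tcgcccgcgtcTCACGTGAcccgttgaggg
Gla, far match, chrX:134601215-134601244, minus strand: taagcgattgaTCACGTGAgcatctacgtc
Gla, near match, chrX:134601182-134601211, minus strand: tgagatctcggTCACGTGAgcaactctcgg
Ctsa, match before the start, chr2:164833749-164833778, plus strand: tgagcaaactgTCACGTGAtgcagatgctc
Mcoln1, chr8:3500462-3500491, plus strand: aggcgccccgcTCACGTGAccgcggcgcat
Atp6v0d1, chr8:105566050-105566079, minus strand: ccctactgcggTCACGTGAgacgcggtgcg
Atp6v1a, chr16:44139373-44139402, minus strand: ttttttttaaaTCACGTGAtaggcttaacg

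For contrast, the 250 bases before the start are shown for Lamp1, the gene with the most matches, 4, and for Ctss, the gene that fell, with none. Capitals mark CACGTG.
Lamp1, chr8:13158911-13159160, plus strand: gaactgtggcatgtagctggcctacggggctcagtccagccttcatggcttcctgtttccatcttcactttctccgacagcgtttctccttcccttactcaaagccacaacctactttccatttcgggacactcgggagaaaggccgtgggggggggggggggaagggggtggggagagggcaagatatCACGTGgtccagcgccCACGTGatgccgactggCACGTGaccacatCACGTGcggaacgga
Ctss, chr3:95526536-95526785, plus strand: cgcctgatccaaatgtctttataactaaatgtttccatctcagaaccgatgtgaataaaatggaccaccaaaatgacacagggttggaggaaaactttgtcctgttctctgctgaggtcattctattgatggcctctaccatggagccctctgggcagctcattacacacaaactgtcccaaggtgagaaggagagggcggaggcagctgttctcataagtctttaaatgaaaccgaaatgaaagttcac

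Genes with and without CACGTG were then set side by side. With age, the median log2 change was 0.30 over the 12 genes with a match, 10 of them above 0, and 0.13 over the 19 genes with a window and no match, 14 of them above 0. Of all genes tested, 47.8% were above 0. The changes ran from -0.31 to 0.52 with a match and from -1.57 to 0.46 without, and so overlapped widely. The median was -0.13 over the 7 genes without a window. In the labelled knockout libraries against aged controls, which enter both comparisons, the medians were -0.27, -0.13 and -0.09. Against young controls they were -0.02, -0.07 and -0.18. These medians are descriptions, without a test, and rest on the windows RefSeq gave.

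**Figure D4:**
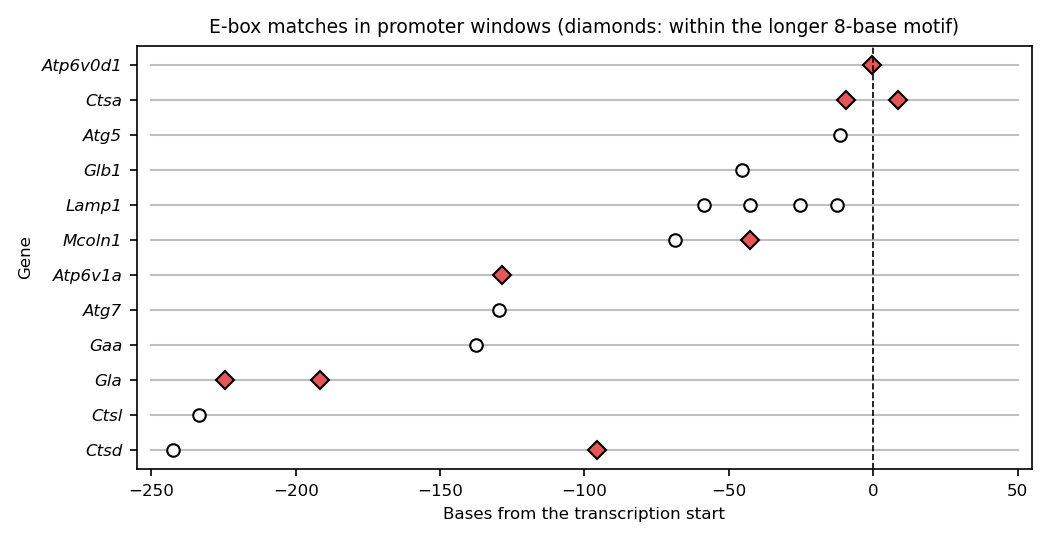
Matches of CACGTG in the promoter windows of 12 genes, placed by bases from the RefSeq transcription start (dashed line), with diamonds where the match lies within TCACGTGA. Of 19 matches, 18 begin before the start, and Lamp1 has 4.

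Of 3 autophagy initiation genes none passed the test with age: the log2 change was -0.04 for Ulk1, the initiating kinase, -0.21 for Becn1, the Beclin 1 gene, and 0.13 for Wipi1. Of 3 conjugation genes, Atg5 and Atg12, whose products are joined to each other, were at -0.31 and -0.19 and Atg7, the activating enzyme, at 0.10. Atg5 gave 22.6, 19.1, 26.6, 22.5 and 24.3 FPKM in young controls and 18.6, 15.6, 16.3, 20.9 and 20.8 in aged controls (adjusted p = 0.276 by limma), with overlap at young control 2.

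The LC3 and GABARAP proteins are attached to the growing autophagosome membrane. Their 5 genes and Sqstm1 had a median log2 change of 0.36 with age, from 0.11 for Sqstm1 to 0.46 for Gabarap. Gabarap was at 86.2, 128, 105, 116 and 95.9 FPKM in young controls and 153, 172, 157, 133 and 119 in aged controls (adjusted p = 0.151 by limma). Map1lc3b, which encodes LC3B (ENSMUSG00000031812, chromosome 8, 121590361 to 121598760), was at 58.2, 71.3, 61.6, 70.4 and 62.3 in young controls and 86.8, 100.1, 95.1, 80.3 and 63.8 in aged controls (adjusted p = 0.133 by limma). In both genes aged control 5 was the lowest of its group. Gabarapl1 did not overlap between groups, with 82.1 to 99.2 FPKM in young and 99.6 to 125 in aged controls, a gap under 1 FPKM.

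The number of genes called with age depended on which libraries entered the fit. Without libraries 2 and 5 of the labelled knockout group, 7 were called: Ctsa, Ctsb, Ctsd, Ctsz, Gabarap and Gla as higher and Ctss as lower, while 9.16% of all genes tested were called. The standard error of Ctsz, for example, was 0.0955 there and 0.134 with all libraries. Without aged control 5, 4 were called, Ctsb, Ctsd and Map1lc3b as higher and Ctss as lower, against 8.2% of all genes.

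The second comparison asked how the libraries labelled aged Thbs1 knockout differ from aged controls. None of the 38 genes passed the test with limma, against 1.55% of all genes tested, and none did with voom weights on reads recovered from the FPKM values, against 1.31%. An unadjusted p under 0.05 was seen in 7 of the 38, against 12.9% of all genes. Log2 changes lay below 0 for 33 of 38 genes, against 54.6% of all genes tested, and the median was -0.13, against -0.03. All 6 glycosidase genes (median -0.23) and all 6 genes of the LC3 family and cargo receptor (-0.13) were below 0, as were 3 of 4 membrane protein genes (-0.33). The aged controls also enter the comparison with age, so a high library there shifts both comparisons in opposite directions.

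Ctsd had the smallest p, with 114, 97.4, 88.9, 76.8 and 90.6 FPKM in labelled knockout libraries 1 to 5. These values lay below the 3 male aged controls and overlapped the females (log2 change -0.44, SE 0.16, adjusted p = 0.213 by limma). Hexa (ENSMUSG00000025232, chromosome 9, 59539540 to 59565109) was at 102, 86.7, 87.7, 95.2 and 80.8 FPKM, against 127, 120.3, 126, 96.9 and 98.3 in aged controls, and only labelled knockout 1 reached the aged range (-0.32, adjusted p = 0.227 by limma). Ctsa gave 41.0, 32.1, 40.8, 41.5 and 37.7 FPKM, all below the lowest aged control (-0.32, adjusted p = 0.234 by limma). It was the one gene of the 38 lower without overlap, against 1.6% of all genes tested.

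Gla was at 1.67, 2.99, 2.74, 2.77 and 2.95 FPKM in the labelled knockout libraries, with overlap of the aged controls in libraries 2 and 5 (log2 change -0.39, adjusted p = 0.296 by limma). Lamp1 (ENSMUSG00000031447, chromosome 8, 13159161 to 13175338) was at 102, 106, 99.96, 116 and 120 FPKM in aged controls and 82.2, 60.4, 103, 102 and 90.4 in labelled knockout libraries (-0.33, adjusted p = 0.314 by limma). Its lowest value was in library 2, which had the largest share of ribosomal RNA reads, and the part of that library in the result was measured by leaving it out: the log2 change was then -0.20.

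Ctss had a higher mean in labelled knockout libraries than in aged controls, 3.93 ± 2.32 against 2.19 ± 0.753 FPKM, which did not pass the test (log2 change 0.52, SE 0.26, adjusted p = 0.412 by limma). Taken by sex, the change was 1.40 within males (adjusted p = 0.0117 by limma, with 1.42% of all genes called) and -0.23 within females (adjusted p = 0.903 by limma). The difference between those changes, 1.63 (SE 0.35, unadjusted p = 0.000376), did not pass when adjusted over all genes (adjusted p = 0.386 by limma). Only 2 male labelled knockout libraries enter it, 1 of them library 2.

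The third comparison set the labelled knockout libraries, of 18 months, against young controls of 3 months, and asks where the levels lie after age and label together. No gene of the 38 passed the test with limma, against 1.63% of all genes tested, and none with voom on recovered reads, against 1.43%. Among the 38, 2 had an unadjusted p under 0.05, against 21.2% of all genes. The median log2 change was -0.06, as over all genes tested (-0.06). Ctss came closest. Its 5 labelled knockout values, 1.26 to 7.22 FPKM, lay below the 7.58 of the lowest young control (log2 change -1.04, SE 0.26, adjusted p = 0.0518 by limma), where 2.32% of all genes tested were lower without overlap. It passed with sex as a covariate (adjusted p = 0.0356 by limma, with 3.78% of all genes called) and within females (-1.55, adjusted p = 0.00438, with 0.582%). It also passed without library 1, 2 or 4 of the labelled knockout group (adjusted p = 0.0472, 0.0117 and 0.0475 by limma), where 1.19%, 1.2% and 5.89% of all genes were called.

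The next genes by p in that comparison were Atg5, Npc2, Map1lc3b and Lamp1. Atg5 (ENSMUSG00000038160, chromosome 10, 44268358 to 44364291) was at 12.6, 16.9, 17.3, 19.0 and 25.1 FPKM in labelled knockout libraries (log2 change -0.35, adjusted p = 0.214 by limma), with 4 of the 5 below the lowest young control. Npc2 (ENSMUSG00000021242, chromosome 12, 84754562 to 84773152), the soluble cholesterol carrier of the lysosome, lay between 19.59 and 24.98 in young controls, with a median of 21.06, and was at 28.5, 29.8, 20.7, 23.0 and 35.8 in labelled knockout libraries (0.31, adjusted p = 0.239 by limma). Map1lc3b was at 85.3, 69.2, 71.6, 69.8 and 95.2 in labelled knockout libraries (0.26, adjusted p = 0.272 by limma), and the log2 change of Lamp1 was -0.26 (adjusted p = 0.278 by limma).

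Male and female libraries were also compared. The library names printed in the table give 7 males and 8 females. Males were 2 of 5 young controls, 3 of 5 aged controls and 2 of 5 labelled knockout libraries. The main fit had no term for sex, so a difference between males and females enters the group means unequally. It can shift both comparisons with aged controls. In every group the males carry the lower replicate numbers, so sex and a batch that follows these numbers cannot be told apart. With group in the model, 8 of the 38 genes were called between male and female libraries, against 12.9% of all genes tested. Map1lc3a, Ctsd and Tfeb were higher in males (3.27% of all genes), and Lamp2, Ctsc, Atp6v1h, Atg12 and Atg5 were lower (9.67%).

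Map1lc3a, which encodes LC3A, had the smallest p. Its FPKM in aged controls was 33.6, 34.2 and 34.5 in males and 18.8 and 12.6 in females, and in labelled knockout libraries 29.0 and 32.0 in males and 16.6, 16.2 and 24.5 in females. Young controls were at 20.9 and 21.1 in males and 19.8, 15.2 and 16.5 in females. Males were thus higher without overlap in each group, as were 5.72%, 27.2% and 10.5% of all genes tested in young controls, aged controls and labelled knockout libraries. The log2 difference was 0.68 (SE 0.14, adjusted p = 0.00802 by limma). Lamp2, an X-linked gene, averaged 9.36 FPKM in males and 14.6 in females (log2 difference -0.71, SE 0.17, adjusted p = 0.0157 by limma). Its males were lower without overlap in aged controls and labelled knockout libraries (29.1% and 19.0% of all genes tested), with overlap in young controls. The other X-linked genes of the 38, Gla and Tfe3, were not called (log2 differences 0.04 and 0.19). Atp6v1h (-0.47, adjusted p = 0.0118 by limma), Ctsc (-0.56, 0.0155) and Atg12 (-0.43, 0.0185) were also lower in males. No gene of the 38, and 0.0% of all genes tested, passed the limma test that a change between groups differed by sex. Among the 38, an unadjusted p under 0.05 was seen for 3 in the comparison with age, 1 for labelled knockout against aged controls and 4 against young controls, where 8.8%, 3.32% and 7.59% of all genes had one.

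**Figure D5:**
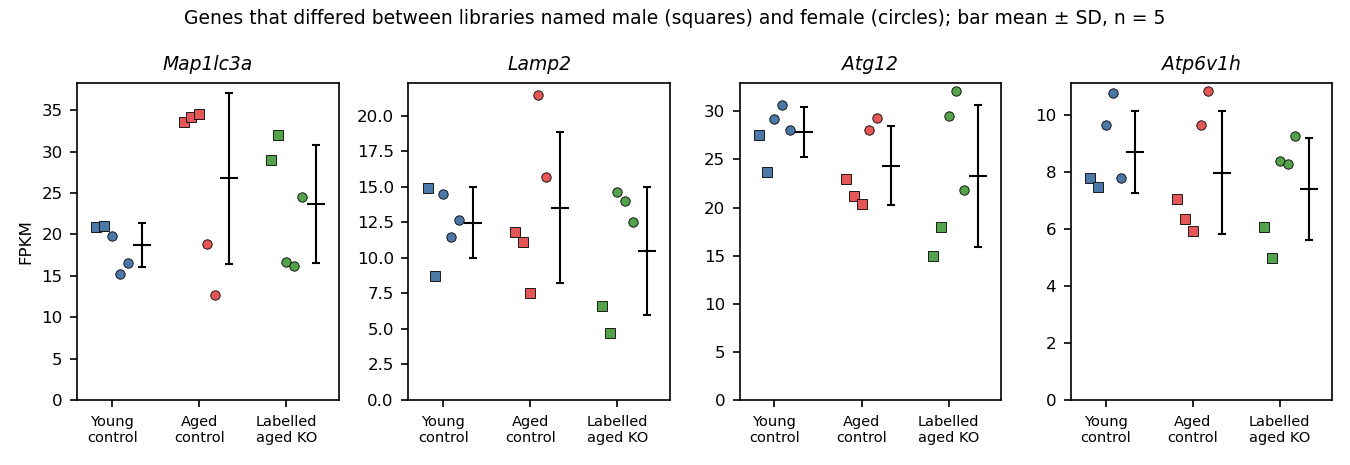
FPKM per library of Map1lc3a, Lamp2, Atg12 and Atp6v1h in the 3 groups (squares male, circles female, bar mean ± SD, n = 5). Males lie above females for Map1lc3a in each group, and below them in both older groups for the other genes.

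In aged controls, 14 of the 38 genes were higher in the 3 males than in the 2 females without overlap and 9 were lower, against 27.2% and 29.1% of all genes tested. The 14 included Ctsa, Ctsd, Ctsz, Hexa, Gaa, Psap, Map1lc3b and Gabarap, which are genes with a higher mean in aged than in young controls. Within males the median change with age over the 38 genes was 0.24 and within females 0.08. Ctsd was called within males (log2 change 0.73, adjusted p = 0.0141 by limma) and not within females (0.17), and the difference of those changes did not pass (0.56, adjusted p = 0.531 by limma).

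Other genes of the pathway were read from 8 lists with 164 genes, 154 of them tested. With age, 4 rose, 2 fell and 148 did not pass the test, while 3.18% of all genes tested rose and 1.23% fell, so the lists as a whole held no more calls than the background. In neither comparison of the labelled knockout libraries did any of the 154 pass with limma. With age the smallest p was that of Lgmn (chromosome 12, 102394084 to 102439813), which encodes legumain, an asparaginyl protease that cleaves and activates cathepsins. Its mean in young controls, 0.626 FPKM, lay under the minimum mean of 1 FPKM set for testing. The gene reached the test only through the older groups, where it is higher, which limits what its call can show. It was at 0.28, 0.26, 0.18, 1.02 and 1.39 FPKM in young controls and 4.39, 3.50, 2.85, 2.90 and 2.53 in aged controls, without overlap (log2 change 1.43, SE 0.20, adjusted p = 0.000227 by limma), and it was called whichever library was left out. In labelled knockout libraries it lay between, at 1.30 to 2.24 FPKM (against aged controls -0.70, adjusted p = 0.10 by limma; against young controls 0.73, adjusted p = 0.0775 by limma).

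Legumain was the one call among 34 other hydrolases and activators. Vmp1, an endoplasmic reticulum scramblase needed to form autophagosomes, rose from 29.8 ± 2.91 to 45.4 ± 5.46 FPKM (± SD, n = 5 per group; log2 change 0.59, adjusted p = 0.0166 by limma), the one call among 29 other autophagy genes. It was at 31.6 ± 6.76 in labelled knockout libraries. The tetraspanin gene Cd63 (0.71, adjusted p = 0.0489 by limma), among 24 membrane protein genes, and Gnptg (0.49, adjusted p = 0.0487 by limma), a subunit of the enzyme that tags hydrolases for the lysosome, among 17 delivery genes, rose close to the threshold and were called in 3 and 7 of 15 fits that each left out 1 library. Vmp1 was called in 11.

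Both falls were among 13 receptors of selective autophagy. Retreg1, the receptor for the endoplasmic reticulum, was at 22.1, 12.9, 23.4, 21.7 and 21.6 FPKM in young controls and 9.19, 8.67, 11.2, 16.7 and 11.8 in aged controls (log2 change -0.78, adjusted p = 0.0253 by limma). Ncoa4, the receptor that delivers ferritin and so releases iron, went from 26.4 ± 3.72 to 16.1 ± 3.82 FPKM (-0.70, adjusted p = 0.042 by limma). Each was called in 8 of 15 fits that left out 1 library. None of 3 cystatins, 15 other V-ATPase genes and 19 genes of nutrient sensing at the lysosome passed the test with age.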

How the data were processed

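Per the submitters' processing notes, FastQC 0.11.5, STAR and edgeR were used with GRCm38 (mm10). How reads were counted is not given in the sources used here. The authors deposited 1 table of FPKM values for 20696 genes and 15 libraries. Columns were assigned by sample title, and sex was read from the library names in the header. Positions and lengths are from GENCODE M21 (GRCm38).

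Depth was recovered from the rounding of low values: in held-out genes of 251 to 500 nucleotides, at least 97.7% of values were whole reads, within 0.1 reads. Reads in genes exceeded the recovered library size in aged control 3 (ratio 1.008) and labelled knockout 5 (1.038). The size behind the FPKM may therefore differ from a plain read total, and the reason was not tested. The voom fit used this recovered size. log2(FPKM + 1) was taken for the 11345 genes whose mean FPKM reached 1 and compared in 1 limma 3.58.1 fit (R 4.3.3, trended eBayes) of all libraries, and 9351 genes were not tested. Adjusted p-values are over all genes tested. The code was tested on simulated data. The genes named with full values were those called or among the 5 smallest p of a comparison, plus called genes among the 4 smallest p of each pathway list; other values were chosen after being seen. The 38 genes and all lists were chosen with earlier results of these data known. Alternatives were another pseudocount (0.1) and filter (none, or mean FPKM of at least 5), sex or replicate number as a term, quantile normalization, groups by description, omitted libraries and, chosen after seeing the data, voom on recovered reads and within-sex changes. The lists of B cell, T and NK cell, erythroid, megakaryocyte, mast cell, endothelial and stromal markers were summed too and are given in the closing section.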

Additional observations from a re-analysis of the deposited data

Results flagged for a closer look

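Each of the 38 genes was screened in each group of 5 libraries for a lowest or highest value whose gap to the next exceeds 0.710 of the whole range (Dixon's 95% limit). In 114 screens 3 values stood out, fewer than the 1 in 20 that chance gives. Gla in labelled knockout 1 was at 1.67 FPKM, with the other 4 at 2.74 to 2.99. Psap in aged control 5 was at 176.59 FPKM, with the others at 228.5 to 244.91. Gabarapl1 in young control 1 was at 82.06 FPKM, with the others at 95.75 to 99.19. Each was the lowest of its group, and the 3 came from different libraries.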

How the results depend on the processing

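The count of the 38 genes called with age was 1 with a pseudocount of 0.1, without the filter, with voom on recovered reads and with the replicate block. It was 2 with sex as a covariate (Ctsd, Ctss, with 5.51% of all genes called) or quantile normalization (Gla, Ctss, with 5.05%). It was 7 without labelled knockout 2 and 5 (9.16%), and 0 at a mean FPKM of at least 5, where Ctss (mean 4.799) is not tested. Leaving out 1 library gave 1 to 4: 4 without aged control 5 (8.2% of all genes called), and 2 without aged control 4 (Ctsd, Ctss) or without labelled knockout 2 or 5 (Ctsb, Ctss). Where no share over all genes stands beside a count, the count does not tell whether the 38 genes differ from the background. Against young controls, labelled knockout libraries gave 1, Ctss, with sex as a covariate (3.78% of all genes) and without libraries 2 and 5 (1.05%), and 0 to 1 over single omissions. Against aged controls they gave 0 in each of these fits, with 2.11% of all genes called with sex as a covariate and 1.59% without libraries 2 and 5. Within males the counts were 2 with age (Ctsd, Ctss, with 7.75% of all genes called), 1 against aged controls (Ctss, with 1.42%) and 0 against young controls (3.44%). Within females they were 1 (Ctss, with 0.961%), 0 (0.264%) and 1 (Ctss, with 0.582%). Medians over single omissions were 0.11 to 0.18 with age, -0.19 to -0.12 for labelled knockout against aged controls and -0.10 to 0.01 against young controls; the last was 0.0343 without libraries 2 and 5.

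Replicate numbers did not pair the libraries throughout (r of same-numbered deviations -0.455 to 0.527 over 15 pairs, and 6 of them over 0.1). In 5 of the 15 pairs the best match was the library of the same number. Number 2 was its own best match in every pair of groups (r = 0.489, 0.470 and 0.372), so a partial pairing remains possible. With the replicate block Cd63 (adjusted p = 0.0724 by limma) and Gnptg (0.0579) were no longer called.

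Grouping by the descriptions called 0 of the 38 genes with age (0 of all genes), and the medians were -0.0776 with age and 0.0924 for labelled knockout against aged controls. With age, log2 changes reversed for Ctsa (-0.23), Ctsb (-0.23), Ctsd (-0.40), Ctss (0.99), Gla (-0.45), Lgmn (-0.36), Cd63 (-0.33), Vmp1 (-0.43), Retreg1 (0.56), Ncoa4 (0.21) and Gnptg (-0.35). Against aged controls Lamp1 (0.22), Ctsa (0.14) and Gla (0.36) reversed, and against young controls Lamp1 (0.0733), Npc2 (-0.0571), Atg5 (0.15) and Map1lc3b (-0.10). The cause was not tested. Over 21 single-gene results and 529 alternative values, 445 kept direction and call, 48 lost the call, 18 gained it and these 18 reversed.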

Other observations

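Summed marker levels of other cell types, in FPKM, are given as ranges for young controls, aged controls and labelled knockout libraries, in that order. Megakaryocyte genes, mostly Pf4, summed to 345 to 454, 263 to 1891 and 153 to 316. Erythroid genes summed to 53.5 to 105, 72.4 to 127 and 49.9 to 112, B cell genes to 35.6 to 47.2, 37.7 to 65.1 and 30.6 to 57.2, and T and NK cell genes to 51.7 to 102, 44.6 to 117 and 22.1 to 56.5. Mast cell and basophil genes (2.69 to 7.20, 3.41 to 8.26 and 1.76 to 5.67) and endothelial and stromal genes (4.33 to 7.31, 3.02 to 7.27 and 3.23 to 6.81) were low throughout. HSC markers summed to 937 to 994, 1112 to 1217 and 785 to 1002.

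Within a group, some libraries held many of the extremes. Young control 1 had the lowest value of its group for 19 of the 38 genes, where it was lowest for 30.1% of all genes tested. Aged control 5 was lowest for 17 of 38, against 21.9% of all genes. Labelled knockout 2 was lowest for 13 and labelled knockout 5 highest for 13 of 38, against 25.2% and 30.8% of all genes.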
